A study of Mus musculus with 10 samples.

Results

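The LY6/uPAR family of small surface and secreted proteins was followed in mouse (Mus musculus) tracheal epithelial organoids, gel-grown spheres of airway lining cells. The 9 genes described are Ly6a, Ly6c1, Ly6c2, Ly6d, Ly6e, Psca, Lypd2, Lypd3 and Slurp1, taken as the rows of the count table with these symbols; all 9 have a row, of 22457 genes in the table. They were selected on values of this same comparison, as a family in which Ly6c1 had the lowest p of all tested genes while Psca was lower, and their differences between the groups are therefore a description and not a test. M3-CKO organoids (3 RNA-seq libraries) came from basal cells of mice that the series title gives as Mettl3 knockouts, and Ctrl organoids (3 RNA-seq libraries) from basal cells of control mice. Both were harvested on day 14. Organoids of both groups were grown in Matrigel with a medium that held insulin, transferrin, cholera toxin, epidermal growth factor, bovine pituitary extract, retinoic acid, serum, the TGF-beta receptor inhibitor A83-01 and the BMP receptor inhibitor DMH-1, with the ROCK inhibitor Y-27632 at the start. A differentiation medium without serum and without these inhibitors is also described for the organoids, but the sources used here leave the day of the change unstated. They also leave unstated the deleted exons, the Cre driver, the strain and age of the mice, and whether each replicate had its own animal or culture. A p-value here therefore covers the spread among libraries that may be technical repeats. Another 4 libraries, of m6A immunoprecipitation and its input, were not analysed here.

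Proteins of this family share a compact domain held together by disulfide bonds, from which 3 loops extend like fingers. Most are tied to the outer face of the plasma membrane by a glycosylphosphatidylinositol (GPI) anchor, while a few, such as SLURP1, are secreted. Members are used as markers of stem cells, leukocytes and layered epithelia, and many lie side by side in one gene cluster. Mettl3 encodes the catalytic subunit of the enzyme that writes N6-methyladenosine on messenger RNA.

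Libraries held 8906375 to 10485922 counts each, and levels are given as CPM, counts scaled to library size with TMM factors. CPM is not corrected for transcript length, so levels are compared between libraries and not between genes. Mettl3 itself had 11.1, 10.3 and 9.87 CPM in the M3-CKO libraries (in replicate order, as in all lists of 3 values that follow), against 14.96, 17.0 and 18.9 CPM in the Ctrl libraries. No M3-CKO library reached the Ctrl range, but the log2 fold change of -0.70 (SE 0.21) was not called by edgeR (adjusted p = 0.12), though DESeq2 did so (0.049), as did edgeR when M3-CKO replicate 3 was left out (0.043). M3-CKO replicate 3 stood apart: the Pearson r of its log2 CPM across genes was 0.919 and 0.908 with M3-CKO replicates 1 and 2, against 0.985 between those 2. Basal cell genes of the trachea were present in all 6 libraries. The 10 basal cell markers, Krt5 and Trp63 among them, summed to 1653 to 2592 CPM in M3-CKO and 3121 to 3816 CPM in Ctrl. The highest M3-CKO sum was that of replicate 3, where Aqp3 alone gave 1127 CPM, against 175 and 163 CPM in replicates 1 and 2. In Ctrl, Aqp3 had 611 to 858 CPM. In bulk RNA, fewer cells of a type and less RNA per cell cannot be told apart.

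Of the 9 members, 8 passed the filter on low counts and were tested, and Ly6c2 was not. Ly6c1 was called higher, Psca was called lower, and 6 were not called at an edgeR adjusted p under 0.05. Over all 13528 tested genes 2.91% were called, 1.74% higher and 1.16% lower. The log2 fold change was positive for 2 of the 8 tested members and for 51.9% of all tested genes. The median log2 fold change of the 8 tested members was -0.34, against 0.02 over all tested genes. The groups did not overlap for 4 of the 8 (Ly6a, Ly6c1, Psca and Slurp1), against 27.1% of all tested genes. Since this comparison chose the family, nothing is read from these counts.

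Ly6c1 encodes a GPI-anchored antigen, Ly-6C, best known from endothelium, monocytes and memory T cells. Its CPM was 111, 138 and 107 in the M3-CKO libraries, and 22.8, 22.1 and 20.4 in the Ctrl libraries. Every M3-CKO library was thus well above every Ctrl library, and the Ctrl libraries lay close to each other. The mean was 119 ± 16.8 CPM in M3-CKO against 21.8 ± 1.22 CPM in Ctrl (SD, n = 3 each), a ratio of 5.44. The log2 fold change of 2.44 (SE 0.17) had the lowest p of all tested genes in edgeR (6.92e-07, adjusted p = 0.0068), the value for which the family was picked. The log2 fold change stayed between 2.33 and 2.51 when any 1 library was left out. The call was nonetheless lost without Ctrl replicate 1, 2 or 3 (edgeR adjusted p = 0.059, 0.057 and 0.0503), settings in which edgeR called 0, 1 and 0 genes in the whole table (2378, 2044 and 1963 at an unadjusted p under 0.05).

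Ly6c2, the near copy that is known as the Ly-6C gene of monocytes, had 1 count in M3-CKO replicate 1 and 0 in the other 5 libraries, below the 0.290 to 0.342 CPM that a floor of 3 counts makes in these libraries. No fold is given for it. The sources used here leave unstated how reads that match both copies were counted, so the split between the 2 rows is uncertain. The sum of both rows does not depend on that split, but it would still miss reads left out of both rows. With 1 count in Ly6c2, the sum is almost the Ly6c1 row alone. Its log2 fold change of 2.44 (SE 0.17) is thus not a separate result. The start regions of the pair are shown because these neighbouring copies, of which Ly6c1 alone was detected above the floor, can then be compared letter by letter. RefSeq windows on GRCm38.p6 (250 bases before to 50 after a transcript start) were found for 3 of the 9 members: Ly6c1, Ly6c2 and Lypd3. Among the listed starts of Ly6c1 and Ly6c2, the best-aligned pair was chr15:75048788-75049087 (minus strand) and chr15:75111922-75112221 (minus strand). In a global alignment 208 of 300 bases were identical, or 69.3%. Capitals mark the bases that had no identical partner in that alignment.
Ly6c1: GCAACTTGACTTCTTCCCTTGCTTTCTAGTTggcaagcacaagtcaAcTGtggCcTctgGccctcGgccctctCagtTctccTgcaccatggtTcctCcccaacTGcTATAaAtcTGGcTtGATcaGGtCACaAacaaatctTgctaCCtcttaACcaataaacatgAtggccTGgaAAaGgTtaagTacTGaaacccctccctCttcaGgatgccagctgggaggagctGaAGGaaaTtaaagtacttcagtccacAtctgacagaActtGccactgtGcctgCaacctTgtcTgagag
Ly6c2: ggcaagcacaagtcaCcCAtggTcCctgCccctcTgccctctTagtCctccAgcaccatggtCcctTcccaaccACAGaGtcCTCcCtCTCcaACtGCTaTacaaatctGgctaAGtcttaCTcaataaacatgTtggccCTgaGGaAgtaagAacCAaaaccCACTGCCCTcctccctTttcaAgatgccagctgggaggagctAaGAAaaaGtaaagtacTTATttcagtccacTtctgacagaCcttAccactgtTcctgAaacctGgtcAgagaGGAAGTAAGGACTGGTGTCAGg
Both windows run through long shared stretches with scattered substitutions. Capitals are densest at the 5′ end of the Ly6c1 window and at the 3′ end of the Ly6c2 window, where the 2 windows do not cover the same bases, and in the middle of both. Of 5 motifs searched on both strands, the interferon-stimulated response element (GAAA, any pair of bases, GAAA), the STAT site TTCNNNGAA and the AP-1 site TGANTCA had 0 matches in either window. They occur in 3.44%, 8.30% and 7.81% of the 32851 RefSeq windows of this length. The TATA box TATAAA (13.6% of windows) had 1 match in Ly6c1 and 0 in Ly6c2, and the E-box CANNTG (72.3% of windows) had 4 and 2. No match overlapped a match of another motif. A match is a description of letters and not a bound site.

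Ly6a encodes stem cell antigen-1 (Sca-1), a GPI-anchored marker of blood stem cells that many epithelia and endothelia also carry. Its CPM was 1006, 1144 and 1025 in the M3-CKO libraries, and 769, 638 and 581 in the Ctrl libraries. The groups did not overlap, and M3-CKO replicate 3 lay beside the other M3-CKO libraries. The mean was 1058 ± 74.8 CPM in M3-CKO against 663 ± 96.5 CPM in Ctrl (SD, n = 3 each), and the log2 fold change of 0.68 (SE 0.17) was not called. Ly6e, an interferon-induced antigen known for restricting the entry of coronaviruses, was close in both groups. It had 2587, 2615 and 3125 CPM in the M3-CKO libraries, and 3725, 2758 and 3075 CPM in the Ctrl libraries. The ranges overlapped, and the log2 fold change was -0.20 (SE 0.19). Ly6d, an antigen of B cell precursors and layered epithelia, was low. It had 4.25, 1.94 and 0.610 CPM in the M3-CKO libraries, and 8.74, 2.75 and 11.3 CPM in the Ctrl libraries. The ranges overlapped through Ctrl replicate 2, and the log2 fold change was -1.73 (SE 0.73).

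Psca encodes prostate stem cell antigen, a GPI-anchored protein of several lining epithelia. Its CPM was 4.35, 5.82 and 3.66 in the M3-CKO libraries, and 12.6, 36.3 and 37.4 in the Ctrl libraries. All M3-CKO libraries lay below all Ctrl libraries, and Ctrl replicate 1 was well below the other 2 Ctrl libraries. The mean was 4.61 ± 1.10 CPM in M3-CKO and 28.7 ± 14.0 CPM in Ctrl (SD, n = 3 each), a ratio of 0.160. The log2 fold change was -2.64 (SE 0.45), and between -2.99 and -2.41 with any 1 library left out. It was called only without M3-CKO replicate 3 among those 6 settings, and the edgeR adjusted p without each of the other 5 libraries was 0.059 to 0.16.

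**Figure D1:**
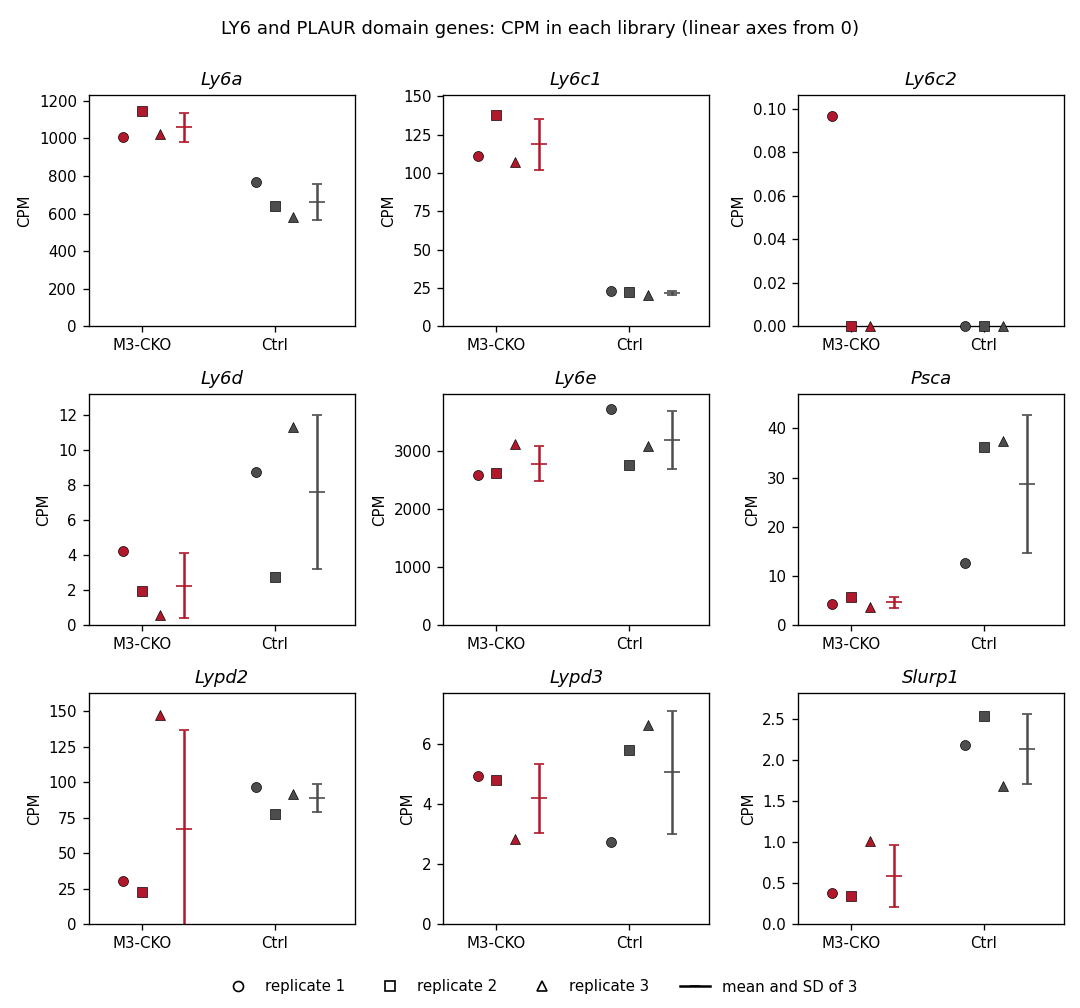
CPM of each of the 9 genes in each library (linear vertical axes from 0, M3-CKO left and Ctrl right; symbols mark replicates, horizontal ticks and bars the mean and SD of 3 libraries, cut off at 0; none drawn for Ly6c2, which had 1 count in all). Ly6c1 sits at 107 to 138 CPM in M3-CKO against 20.4 to 22.8 CPM in Ctrl, Psca at 3.66 to 5.82 against 12.6 to 37.4 CPM, and Lypd2 is split by M3-CKO replicate 3.

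Lypd2, which airway club cells are known to express, divided the M3-CKO libraries. Its CPM was 30.6, 22.6 and 148 in the M3-CKO libraries, and 97.0, 77.9 and 91.9 in the Ctrl libraries. M3-CKO replicates 1 and 2 lay below every Ctrl library and replicate 3 above every one, at 5.55 times the mean of replicates 1 and 2. The log2 fold change was -0.41 (SE 0.64) with all libraries and -1.74 without M3-CKO replicate 3, where it was called, as were 25.0% of all genes tested in that setting. The 10 club cell markers, Lypd2 among them, summed to 5449, 4777 and 13060 CPM in the M3-CKO libraries and to 10463 to 10823 CPM in Ctrl, so the same library was high for the list. The part of the club cell markers in the Lypd2 values was not tested.

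Lypd3 encodes C4.4A, a relative of the urokinase receptor that is known from the upper layers of squamous epithelium. Its CPM was 4.92, 4.79 and 2.85 in the M3-CKO libraries, and 2.73, 5.81 and 6.63 in the Ctrl libraries. The ranges overlapped and the log2 fold change was -0.27 (SE 0.43). Slurp1, the secreted member, modulates nicotinic acetylcholine receptors, and loss of the human gene causes the skin disease mal de Meleda. It was barely detected, with 4, 3 and 10 counts in the M3-CKO libraries (0.386, 0.342 and 1.02 CPM) and 20, 24 and 15 counts in the Ctrl libraries (2.18, 2.54 and 1.68 CPM). The gene passed the filter through its Ctrl libraries. The groups did not overlap, and the log2 fold change of -1.85 (SE 0.56) was not called, while the value of -2.51 without M3-CKO replicate 3 was.

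In RefSeq order on GRCm38.p6, 8 of the 9 members lie in one cluster on chromosome 15 and Lypd3 lies on chromosome 7. From Psca onward the cluster holds, among others, Slurp1, Lypd2, Slurp2, Lynx1, Ly6d, Ly6g6g and Ly6k, then Ly6m and Ly6e, then Ly6i, Ly6a, Ly6c1 and Ly6c2, with Ly6g and Ly6g2 beyond. All 7 tested family genes from Psca to Ly6k had a negative log2 fold change, from -2.64 for Psca to -0.19 for Lynx1, and the 3 tested ones from Ly6i to Ly6c1 a positive one, from 0.68 for Ly6a to 3.05 for Ly6i. Between and beyond them Ly6m (0.07), Ly6e (-0.20) and Ly6g2 (-0.05) were near 0. Lypd2 turned to 0.01 without M3-CKO replicate 2. This grouping was seen after the values were known. Of the tested named genes of other families at the Psca end, Arc had a log2 fold change of -0.41 (SE 0.55, edgeR adjusted p = 0.74). Jrk, which encodes a DNA-binding protein, had 5.21, 6.16 and 11.3 CPM in the M3-CKO libraries against 22.2, 19.1 and 21.5 CPM in the Ctrl libraries, and a log2 fold change of -1.47 (SE 0.32, edgeR adjusted p = 0.059). It was called by DESeq2 (adjusted p = 9.4e-04), limma-voom (0.048), edgeR with no filter (0.026) and edgeR without M3-CKO replicate 3 (-1.88, adjusted p = 9.7e-04). Them6, between Psca and Slurp1, had a log2 fold change of 0.02 (SE 0.45, edgeR adjusted p = 0.99); leaving out M3-CKO replicate 3 gave -0.78 and a call (edgeR adjusted p = 0.013). Around Lypd3, none of Xrcc1, Ethe1 and Phldb3 was called, with log2 fold changes of -0.22, -0.55 and -0.45 (edgeR adjusted p = 0.74, 0.51 and 0.49).

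**Figure D2:**
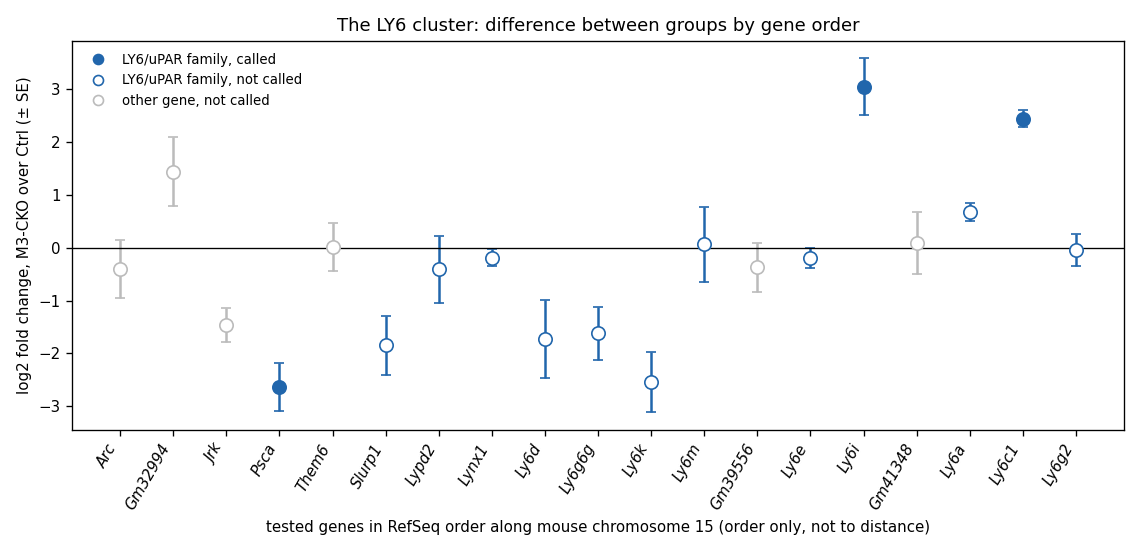
Log2 fold change of M3-CKO over Ctrl (points, with SE as bars) for the tested genes of the chromosome 15 cluster and its flanks, in RefSeq order and not to distance; blue marks the LY6/uPAR family, filled points are called by edgeR. Family genes from Psca to Ly6k lie below 0, and Ly6i, Ly6a and Ly6c1 lie at 3.05, 0.68 and 2.44.

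Of 39 other family genes listed, 23 had a row and 14 were tested. Of these 14, edgeR called Ly6i alone higher and 0 lower, and 13 stayed uncalled, where 2.91% of all tested genes were called. The log2 fold changes of the 14 had a median of 0.13, against 0.02 over all tested genes. At an unadjusted p under 0.05 there were 4, against 20.5% of all tested genes, and DESeq2 called 4, against 10.4%. Ly6i, a neighbour of Ly6a, had 7.43, 9.01 and 2.75 CPM in the M3-CKO libraries, and 0.655, 0.846 and 0.786 CPM in the Ctrl libraries. No library overlapped, and the log2 fold change was 3.05 (SE 0.54, edgeR adjusted p = 0.037). The gene passed the filter through its M3-CKO libraries, since Ctrl libraries had only 6 to 8 counts. The call was lost without any 1 library other than M3-CKO replicate 3 (edgeR adjusted p = 0.11 to 0.17). It was also lost with limma-voom (adjusted p = 0.083) and with the replicate number as a block (edgeR adjusted p = 0.093). Ly6i is a close relative of the Ly6a and Ly6c genes beside it, so its count is uncertain.

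Ly6k, a family gene known from testis, had 8.79, 9.93 and 1.83 CPM in the M3-CKO libraries, and 56.2, 28.4 and 35.4 CPM in the Ctrl libraries. All M3-CKO libraries were lower, but the log2 fold change of -2.55 (SE 0.57) was not called (edgeR adjusted p = 0.061). DESeq2 did call Ly6k (adjusted p = 1.7e-04), as did edgeR with no filter (0.010). Ly6g6g, its neighbour, had 4.73, 3.99 and 1.32 CPM in M3-CKO and 14.0, 7.08 and 10.0 CPM in Ctrl (log2 fold change -1.62, SE 0.50, edgeR adjusted p = 0.12; not in the list, added after its values were seen). Lypd6, whose protein binds nicotinic receptors, had 4.06, 2.05 and 4.68 CPM in M3-CKO and 6.77, 10.3 and 9.88 CPM in Ctrl (log2 fold change -1.31, SE 0.38, edgeR adjusted p = 0.11). Ly6g6c had 10.7, 8.10 and 1.12 CPM in M3-CKO and 0.655, 1.90 and 0.225 CPM in Ctrl, so that M3-CKO replicate 3 fell within the Ctrl range (log2 fold change 2.81, SE 0.94, edgeR adjusted p = 0.15). DESeq2 called Ly6g6g, Lypd6 and Ly6g6c (adjusted p = 0.025, 0.025 and 0.023), and edgeR without M3-CKO replicate 3 called Ly6g6g (0.032). Without M3-CKO replicate 3, Ly6i and Ly6g6c were called higher and Ly6k, Lypd6 and Lypd6b lower, 5 of 14, against 25.0% of all genes in that setting.

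The remaining tested family genes were not called with all 6 libraries. Lynx1, a GPI-anchored modulator of nicotinic receptors, had 105 to 135 CPM in M3-CKO and 127 to 152 CPM in Ctrl (log2 fold change -0.19, SE 0.16, edgeR adjusted p = 0.55). Plaur, the urokinase receptor, had 33.3 to 48.4 CPM in M3-CKO and 27.2 to 54.5 CPM in Ctrl (0.18, SE 0.29, adjusted p = 0.78). Cd59a, which blocks the last step of complement attack, had 11.5 to 16.3 CPM in M3-CKO and 6.77 to 11.3 CPM in Ctrl (0.52, SE 0.28, adjusted p = 0.35). Lypd6b stood at -0.54, Ly6g2 at -0.05, Ly6m at 0.07, Ly6g6e at 0.07, Ly6g6d at 0.39, Ly6g5b at 0.88 and Pinlyp at 1.65 on the log2 fold change scale, with edgeR adjusted p from 0.30 to 0.97. The values of Pinlyp and Ly6g5b rest on M3-CKO replicate 3 and were 0.32 and 0.04 without it. The 9 untested genes with a row, among them the neutrophil markers Ly6g and Cd177, stayed at or below 1.35 CPM in every library, and Slurp2, Lypd1, Lypd5, Lypd8, Lypd8l, Cd59b and Pate2 at or below 0.952 CPM.

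**Figure D3:**
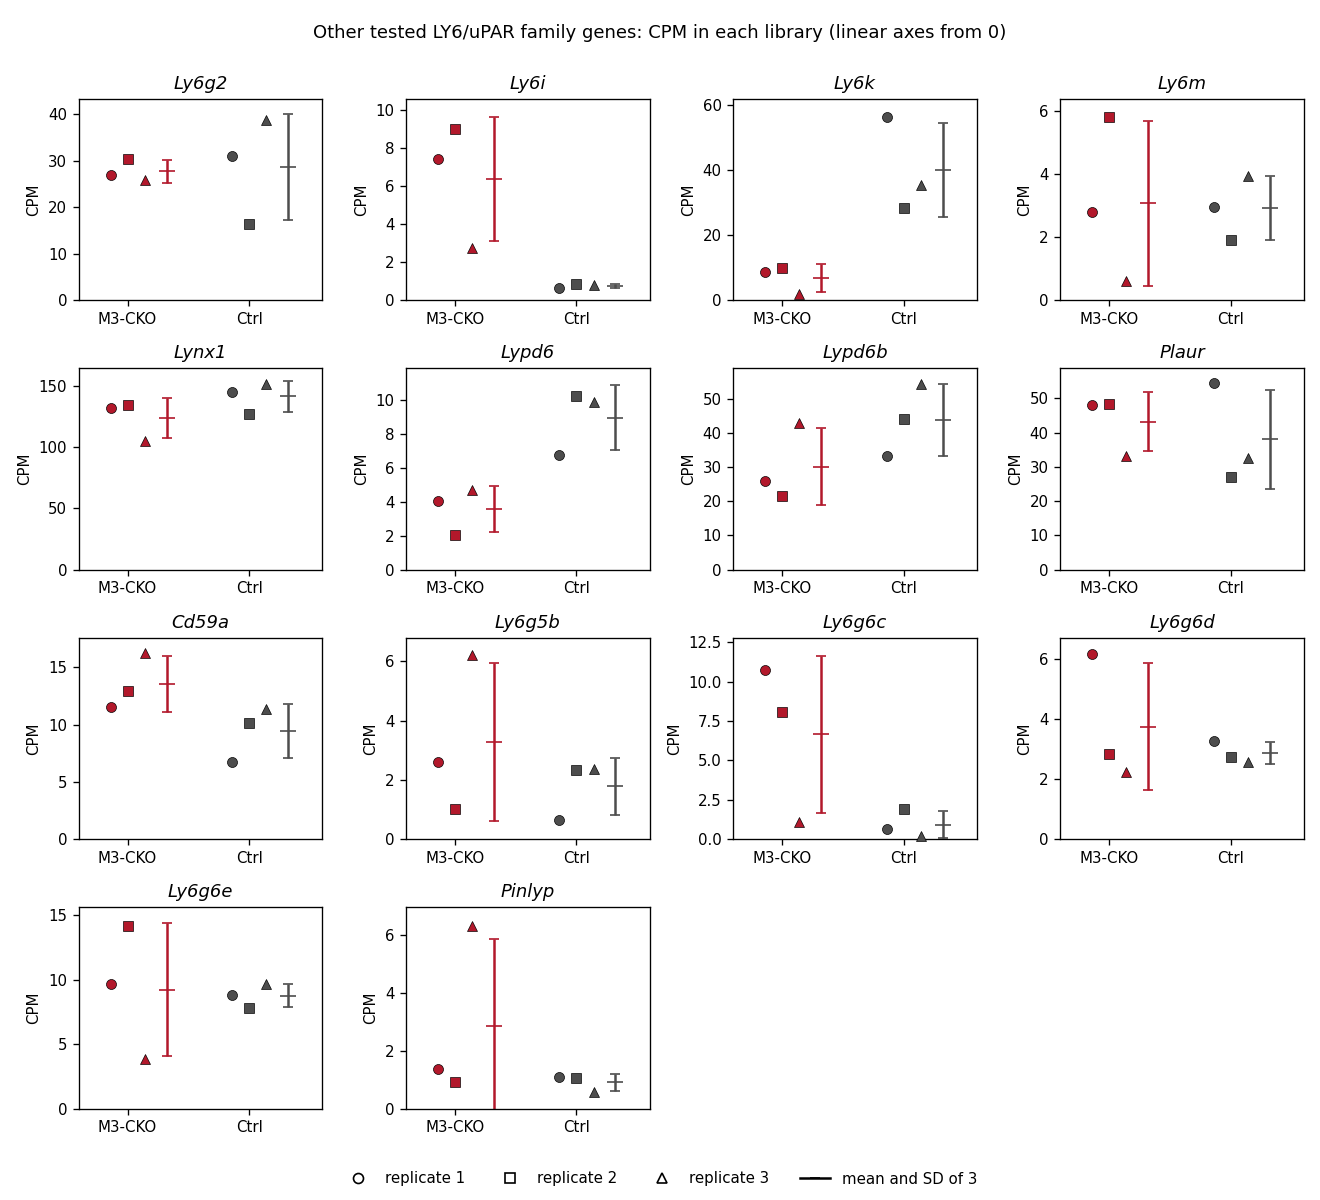
CPM of the 14 other tested LY6/uPAR family genes in each library (linear vertical axes from 0, M3-CKO left and Ctrl right; symbols mark replicates, ticks and bars the mean and SD of 3 libraries, cut off at 0). Ly6i lies at 2.75 to 9.01 CPM in M3-CKO against at most 0.846 CPM in Ctrl, and Ly6k at 1.83 to 9.93 against 28.4 to 56.2 CPM.

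Genes that act with the family were counted from lists. In the plasminogen system, in which the urokinase receptor acts, edgeR called 0 of 6 tested genes, against 2.91% of all tested genes. DESeq2 called 2, against 10.4%, and 2 had an unadjusted p under 0.05, against 20.5%. The protease Plau had 16.7, 19.2 and 1.93 CPM in the M3-CKO libraries against 5.68, 4.23 and 7.08 CPM in the Ctrl libraries (log2 fold change 1.15, SE 0.71, edgeR adjusted p = 0.41). Leaving out M3-CKO replicate 3 made it a higher call, at 1.66 (edgeR adjusted p = 0.0036).

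Nicotinic receptor subunits, the partners of SLURP1 and LYNX1, were scarce. Of 16 listed, 10 had a row and only Chrnb1 and Chrnb2 were tested, with 0 called by edgeR or DESeq2 and 0 at an unadjusted p under 0.05. Chrna7 has no row. Of 31 tested genes of GPI anchor synthesis and remodelling edgeR called 0 and DESeq2 called 1, with 3 at an unadjusted p under 0.05. Over all tested genes the shares were 2.91% (edgeR), 10.4% (DESeq2) and 20.5% (unadjusted p). The summed CPM of the 32 listed genes, all with a row, was 1318 ± 79.7 in M3-CKO and 1326 ± 99.7 in Ctrl (SD, n = 3 each). With M3-CKO replicate 3 left out, 9 of the 31 were called, against 25.0% of all genes. Agr2, a secreted ligand of LYPD3, had 9.56, 10.2 and 61.4 CPM in the M3-CKO libraries and 27.3, 35.4 and 20.6 CPM in the Ctrl libraries (log2 fold change -0.04, SE 0.69, edgeR adjusted p = 0.98), so M3-CKO replicate 3 was high here as for Lypd2. Without that library the log2 fold change of Agr2 was -1.50 (edgeR adjusted p = 0.0051).

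Ly6a and Ly6e are known to be induced by interferon, and the interferon response list was read beside them. Of 23 tested genes edgeR and DESeq2 called 0, against 2.91% and 10.4% of all tested genes. At an unadjusted p under 0.05 there was 1, against 20.5%. The median log2 fold change was 0.12, against 0.02 over all tested genes. The list summed to 1904, 2390 and 960 CPM in the M3-CKO libraries and to 1415, 2069 and 663 CPM in the Ctrl libraries, with overlapping ranges. The part of the interferon response in the Ly6a and Ly6e values was not tested.

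Cells outside the epithelium that carry Ly-6C were looked for by their markers. The 8 endothelial markers with a row summed to 3.48 to 4.48 CPM in M3-CKO and 1.48 to 2.95 CPM in Ctrl, ranges that do not overlap, and the 1 that was tested, Esam, was not called (log2 fold change -0.13, SE 0.83, edgeR adjusted p = 0.95). Cdh5 and Kdr have no row. The defining Pecam1 was at 0.193, 0 and 0 CPM in M3-CKO and 0, 0.106 and 0 CPM in Ctrl. Of the untested markers Vwf had 26 counts over the M3-CKO libraries and 3 over the Ctrl libraries, Eng 15 and 5, and Egfl7 24 and 10. Plvap had 13 and 7, Tie1 4 and 0, and Tek, the other way, 2 and 5. The groups did not overlap for Vwf and Eng, as for 27.1% of all tested genes. Of the lymphocyte list only Cd79b had a row, at 1.06 to 3.15 CPM in M3-CKO and 0.846 to 1.42 CPM in Ctrl, and it was not called. For monocytes and macrophages Ptprc, the pan-leukocyte marker, was at 0 in all libraries but Ctrl replicate 2 (0.211 CPM). The untested Csf1r had 51 counts over the M3-CKO libraries and 15 over the Ctrl libraries, Fcer1g 16 and 7, and Cx3cr1 2 and 0. Itgam, which was tested, had 89 and 216 counts (log2 fold change -1.32, SE 0.73, edgeR adjusted p = 0.36). The groups overlapped for each of these. The sum of the 9 listed monocyte genes with a row, 1250 to 1654 CPM in M3-CKO and 1128 to 2035 CPM in Ctrl, came mostly from Cd14 and Lyz2, which epithelia can also express. Cd14 had 843, 998 and 683 CPM in the M3-CKO libraries and 499, 438 and 424 CPM in the Ctrl libraries (log2 fold change 0.89, edgeR adjusted p = 0.052, DESeq2 adjusted p = 6.9e-04). Ccr2 had 17.3, 11.6 and 52.8 CPM in the M3-CKO libraries and 92.4, 112 and 178 CPM in the Ctrl libraries (-2.23, edgeR adjusted p = 0.075, DESeq2 adjusted p = 5.8e-04). Neither gene overlapped between the groups, while Cd68, at 37.6 to 93.3 CPM in M3-CKO and 53.1 to 81.1 CPM in Ctrl, did. The groups thus did not overlap for 2 of the 5 tested monocyte genes, against 27.1% of all tested genes. Of the 5 tested monocyte genes, edgeR called 0, against 2.91% of all tested genes, and DESeq2 called 2, against 10.4%. At an unadjusted p under 0.05 there were 2, against 20.5%. The part of these cells in the Ly6c1 values was not tested. Mesenchymal markers summed to 2.40 to 3.86 CPM in M3-CKO and 4.59 to 13.3 CPM in Ctrl. Pdgfra alone had a mean of 1.97 CPM in M3-CKO and 8.13 CPM in Ctrl, where the list had 2.96 and 9.01 CPM. The untested markers went both ways. Vim had 11 counts over the M3-CKO libraries and 3 over the Ctrl libraries, Col1a1 4 and 0, Acta2 13 and 16, and Dcn 1 and 5. Pdgfra, the 1 gene tested, was not called by edgeR (adjusted p = 0.092), though DESeq2 did so (0.0088), as did edgeR when M3-CKO replicate 3 was left out (0.018).

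Markers of layered and basal epithelium had a negative median log2 fold change, -1.03 for the hillock and squamous list and -0.74 for the basal list. Of 9 tested hillock and squamous markers 2 fell, Krt4 and Sprr1a (log2 fold change -1.82 and -0.95, edgeR adjusted p = 0.027 and 0.039), and 7 were not called. Their list summed to 698, 652 and 1217 CPM in the M3-CKO libraries and 1148 to 1313 CPM in Ctrl, but Sprr2a3 alone gave 870 CPM of the sum in M3-CKO replicate 3. The other 9 genes with a row summed to 561, 523 and 347 CPM in the M3-CKO libraries and 1110, 1183 and 1097 CPM in the Ctrl libraries, a split made after the values were seen. Of the 9 tested markers of the list, 7 had a negative log2 fold change and 2 a positive one. The 2 were Sprr2a3 (1.94, edgeR adjusted p = 0.21) and Sbsn (1.15, edgeR adjusted p = 0.29). Of 10 basal markers 3 fell, Krt15, Krt5 and Krt14 (log2 fold change -2.23, -1.82 and -2.13, edgeR adjusted p = 0.0083, 0.024 and 0.037), and 7 were not called. The calls of Krt4, Sprr1a, Krt5 and Krt14 were lost without any 1 library other than M3-CKO replicate 3 (edgeR adjusted p = 0.075 to 0.18), and that of Krt15 without M3-CKO replicate 1 or any 1 Ctrl library (0.063 to 0.077). Of 9 tested club cell markers Scgb1a1 alone was called, higher in M3-CKO at a log2 fold change of 5.23 (edgeR adjusted p = 0.033). That value was 0.10 to 0.17 without M3-CKO replicate 1 or any 1 Ctrl library. Of 6 tested ciliated cell markers edgeR called 0 and DESeq2 called 1, with 1 at an unadjusted p under 0.05. Over all tested genes the shares were 2.91% (edgeR), 10.4% (DESeq2) and 20.5% (unadjusted p). Leaving out M3-CKO replicate 3, edgeR called 9 of 10 basal markers (1 higher, 8 lower) and 6 of 9 club cell markers (1 higher, 5 lower). It also called 5 of 9 hillock and squamous markers (1 higher, 4 lower), where 25.0% of all genes were called. The log2 fold change of Scgb1a1 was 3.83 in that setting. DESeq2 with all libraries called 4 basal, 1 club cell and 3 hillock and squamous markers, against 10.4% of all tested genes. The part of these cell types in the Psca values was not tested.

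The genes whose log2 CPM ran most like Ly6c1 over the 6 libraries, of 10514 with a mean of at least 5 CPM, were Tmem167 (Pearson r 0.996), Timp3, a metalloproteinase inhibitor (0.993), Ltb, a ligand of the TNF family (0.992), Nenf, which encodes a secreted protein (0.992), and Gatad1 (0.992). Ltb, for example, had 11.5, 14.3 and 14.0 CPM in the M3-CKO libraries and 2.95, 2.64 and 3.03 CPM in the Ctrl libraries. Most like Psca were Etl4 (r 0.997), Fcho2, which acts in endocytosis (0.995), Paxip1 (0.993), Zdhhc15, a palmitoyltransferase (0.993), and B3galt5, a galactosyltransferase (0.991). The genes like Psca shared its low value in Ctrl replicate 1, as with Etl4, which had 118, 130 and 115 CPM in the M3-CKO libraries and 144, 183 and 185 CPM in the Ctrl libraries. These r values rest on 6 libraries in 2 groups and largely carry the difference between the groups.

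**Figure D4:**
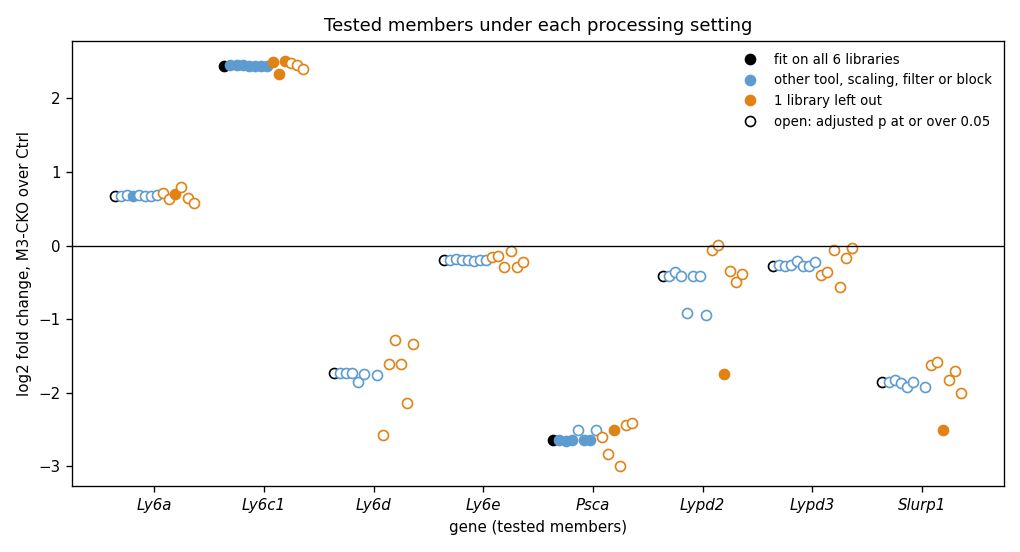
Log2 fold change of M3-CKO over Ctrl for the 8 tested members under each setting (black, all 6 libraries with edgeR; blue, another tool, scaling, filter or a replicate block; orange, 1 library left out; filled where the adjusted p was under 0.05). Ly6c1 keeps to 2.33 to 2.51, Psca to -2.99 to -2.41, and Lypd2 ranges from -1.74 to 0.01.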

How the data were processed

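RNA-seq counts of 6 libraries were used, 3 of M3-CKO and 3 of Ctrl organoids on day 14. The authors deposited whole-number counts per gene with no scaling. Per the submitters' processing notes, the tools were Trim Galore, HISAT2 and featureCounts, and the build was mm39. The sources used here leave versions, annotation, strand setting and the treatment of multiply mapped reads unstated, so counts of near-identical or overlapping genes are uncertain. The 4 libraries of m6A immunoprecipitation and input have no columns in the table and were not analysed here.

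Counts were tested over the whole table with edgeR 4.0.16 in R 4.3.3 (filterByExpr, 13528 of 22457 genes kept; TMM factors 0.956 to 1.05; glmQLFit and glmQLFTest, two-sided, no covariate; call at a Benjamini-Hochberg adjusted p under 0.05 over all tested genes). The SE is the log2 fold change over the square root of F. A floor of 3 counts covers counting error only. The closest libraries, M3-CKO replicates 1 and 2, differed by 6.11 chi-square units per degree of freedom over genes, above sampling noise, and were kept as 2 samples. The same fit was also run on simulated counts with dispersions taken from these data. Of 50 genes each changed 2, 4, 8 and 16 times, it recovered 14%, 82%, 98% and 88%, with 9 false calls among 150. The simulated libraries of a group were drawn alike, with none set apart as M3-CKO replicate 3 was, so these shares may be too high for the real data. A gene that was not called may thus still differ 2 times or far more. Among uncalled genes, the ratio of mean CPM, M3-CKO over Ctrl, was 0.171 for Ly6k and 7.16 for Ly6g6c.

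Members and lists were chosen with earlier results of these data known. The text names all members, other family genes, up to 4 called genes per list and the 5 genes most like Ly6c1 and Psca (Pearson r of log2 CPM, prior count 2). It also names the tested chromosomal neighbours apart from predicted genes (Gm names). Genes outside this are marked or given as values behind a list sum. Of the list genes, 2 were matched by an older or newer symbol. Gene order and start regions came from RefSeq on GRCm38.p6, not the build of the counts; start regions were aligned with Biopython 1.88 (match 2, mismatch -1, gap -5 and -0.5). Alternatives were the Wald test and the size factors of DESeq2 1.42.0, scaling by library size, limma-voom (limma 3.58.1), no filter, at least 10 counts in every library, a replicate block and leaving out each library. A result of the plasminogen list is not reported here.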

Additional observations from a re-analysis of the deposited data

How the results depend on the processing

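Of the settings tried, the count of 393 called genes stood within 1.5 times under DESeq2 size factors, library size alone, limma-voom and the stricter filter. It was 1402 with the DESeq2 Wald test and 740 with no filter, and 0 to 3483 with 1 library left out, highest without M3-CKO replicate 3. With the replicate number as a block it was 20. Deviations of same-numbered libraries correlated at -0.03, 0.02 and -0.10 (replicates 1 to 3), and those of the other pairs at -0.08 to 0.11. With 3 libraries per group these values cannot show whether same-numbered libraries share an animal, a culture or a batch. Under the block Ly6c1 was called (2.44, adjusted p = 0.038), as was the sum of Ly6c1 and Ly6c2, and Psca was not (-2.51, adjusted p = 0.073). The sum of Ly6c1 and Ly6c2 is almost the Ly6c1 row alone and not a separate result. Its log2 fold change was 2.33 to 2.51 with 1 library left out. It was called without any 1 M3-CKO library and not without any 1 Ctrl library.

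No called member changed sign. limma-voom also lost the Psca call (-2.50, adjusted p = 0.071), and Ly6a was called by DESeq2 (0.68, adjusted p = 0.0043) and without M3-CKO replicate 3. Among genes that were not called, the sign turned with limma-voom and the block for Ly6g2 (0.039 and 0.026), Ly6m (-0.38 and -0.24), Ly6g6e (-0.13 and -0.084) and Them6 (-0.20 and -0.22), and with library size alone for Agr2 (0.0074). With 1 library left out, the range crossed 0 for Lypd2 (-1.74 to 0.0088), Ly6g2 (-0.33 to 0.22), Ly6m (-0.75 to 0.55), Plaur (-0.015 to 0.54), Ly6g6d (-0.17 to 0.66), Ly6g6e (-0.36 to 0.43) Them6 (-0.78 to 0.32), Agr2 (-1.50 to 0.37), Esam (-1.32 to 0.33) and Arc (-0.93 to 0.28). The cause was not tested. Of the 14 tested other family genes edgeR called 1 and DESeq2 4, against 2.91% and 10.4% of all tested genes. With 1 library left out edgeR called 0 to 5 of them. The 5 were without M3-CKO replicate 3, where 25.0% of all tested genes were called. Depth limits Slurp1, Ly6d, Lypd3 and Ly6i, and Ly6c2 was below the floor.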
